A study of Mus musculus with 2 samples.

Results

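The genes described here encode the machinery that fuses hormone granules with the plasma membrane, measured by bulk poly(A) RNA-seq in 2 samples of mouse pituitary cells. They were chosen by name from the protein-coding rows of the gene count table: the synaptotagmins, VAMPs and SNAPs (Syt, Vamp or Snap with a number), the syntaxins and syntaxin-binding proteins (Stx or Stxbp with a digit), and the Rab3 and Rab27 GTPases. This gave 58 genes of the 21637 protein-coding genes and 47069 genes in the table, namely 17 synaptotagmins, 8 VAMPs, 5 SNAPs, 15 syntaxins, 7 syntaxin-binding proteins and 6 Rab genes. The rule itself uses names and no measured value, but it was set with earlier results of these data known.

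In endocrine cells, a granule is first held at the plasma membrane by a Rab GTPase and its effectors. A VAMP on the granule then zips together with a syntaxin and a SNAP on the plasma membrane, and this SNARE bundle pulls the membranes into contact. Syntaxin-binding proteins of the Munc18 type guide syntaxin into the bundle, and synaptotagmins couple the final fusion step to a rise in cytosolic calcium. Pituitary cells use this route to release growth hormone, prolactin and the other stored hormones, while related SNAREs serve the Golgi, endosomes and lysosomes.

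Both samples were acutely dissociated whole pituitaries of randomly cycling C57BL/6 females aged 10 to 12 weeks, dispersed with collagenase and pancreatine. The study's methods describe a sample as about 500000 to 700000 cells of 5 pituitaries. They say so where cells were plated for single-cell assays and give no separate number for the bulk samples. If the bulk samples were pooled alike, no value belongs to 1 animal. The cells of one were stored in RNA-Best, a buffer meant to stabilize single cells and their RNA, and those of the other in RNAlater, the reference stabilizer. The comparison asks whether transcript levels in RNA-Best match those in the reference. With 1 library per stabilizer there is no replicate check, no SD and no test, and the stabilizer, the cells of each sample and the library preparation cannot be told apart.

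Counts in genes came to 53915047 for RNA-Best and 44917492 for RNAlater. Levels are given as CPM, the count scaled by the total of its library, and each difference as the log2 ratio of RNA-Best over RNAlater with 0.5 CPM added to both, so a negative value is lower in RNA-Best. Intervals are exact 95% counting intervals of the ratio without the 0.5 CPM. They cover counting error only, since each stabilizer had 1 library. Removal of PCR copies of a molecule is not described in the study's methods. Copies counted as separate reads would leave the intervals too narrow. Prolactin and growth hormone mRNA took 29.7% of all counts in RNA-Best and 23.2% in RNAlater, which lowers the CPM of all other genes more in RNA-Best. Across the 13815 protein-coding genes that averaged 1 CPM or more the median log2 ratio was -0.22, and it was -0.06 under TMM scaling, -0.05 under DESeq2 size factors and -0.11 by the total without these 2 genes. Directions below are therefore given with the number of these 4 scalings that share them, or relative to that median.

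Of the 58 genes, 53 had a mean of at least 1 CPM, 46 reached 10 CPM and 10 reached 100 CPM. The 5 below 1 CPM were Stx19 with 14 counts in RNA-Best and 5 in RNAlater, Syt2 with 17 and 9, Syt10 with 5 and 1, Vamp9 with 8 and 9, and Syt8 with no count in either library. A count of 0 allows up to 0.0556 CPM in RNA-Best against 0.0668 CPM in RNAlater (3 counts). Summed over all 58 genes, the machinery stood at 3208 CPM in RNA-Best against 3502 CPM in RNAlater. The order of the 53 genes by CPM per kilobase of longest annotated transcript was nearly the same in both libraries (Spearman 0.984 across genes, which are not independent replicates). Both levels of a gene share the same length divisor, and levels differ widely among genes. A high value is therefore likely even where single ratios differ, and it does not measure their agreement.

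None of the 53 genes was 2-fold apart in either direction, and all ratios lay between -0.75 (Syt15) and 0.57 (Vamp8). Among all protein-coding genes tested, 5.79% were at least 2-fold lower in RNA-Best and 0.109% at least 2-fold higher. By CPM, 40 of the 53 genes were lower in RNA-Best and 13 higher, beside 72.3% lower among protein-coding genes. The counting interval lay wholly below 0 for 28 genes and wholly above 0 for 9, beside 57.6% and 16.8% of protein-coding genes, and it held 0 for 16. The median ratio of the machinery was -0.12, which is 0.11 above the protein-coding median.

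Under all 4 scalings 20 of the 53 genes were lower in RNA-Best, beside 55.0% of protein-coding genes, among them the calcium sensors Syt1, Syt6 and Syt7, the tomosyn gene Stxbp5, the granule SNARE Vamp2 and the GTPase Rab3c. Under all 4 scalings 13 genes were higher, beside 27.7% of protein-coding genes, among them Syt4, Syt5, Snap47, Rab3d and the endosomal and Golgi VAMPs Vamp3, Vamp4, Vamp7 and Vamp8. The other 20 genes, among them Snap25, Snap23, Rab27a, Rab3a and Stx3, were lower by CPM and higher under at least 1 other scaling.

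**Figure D1:**
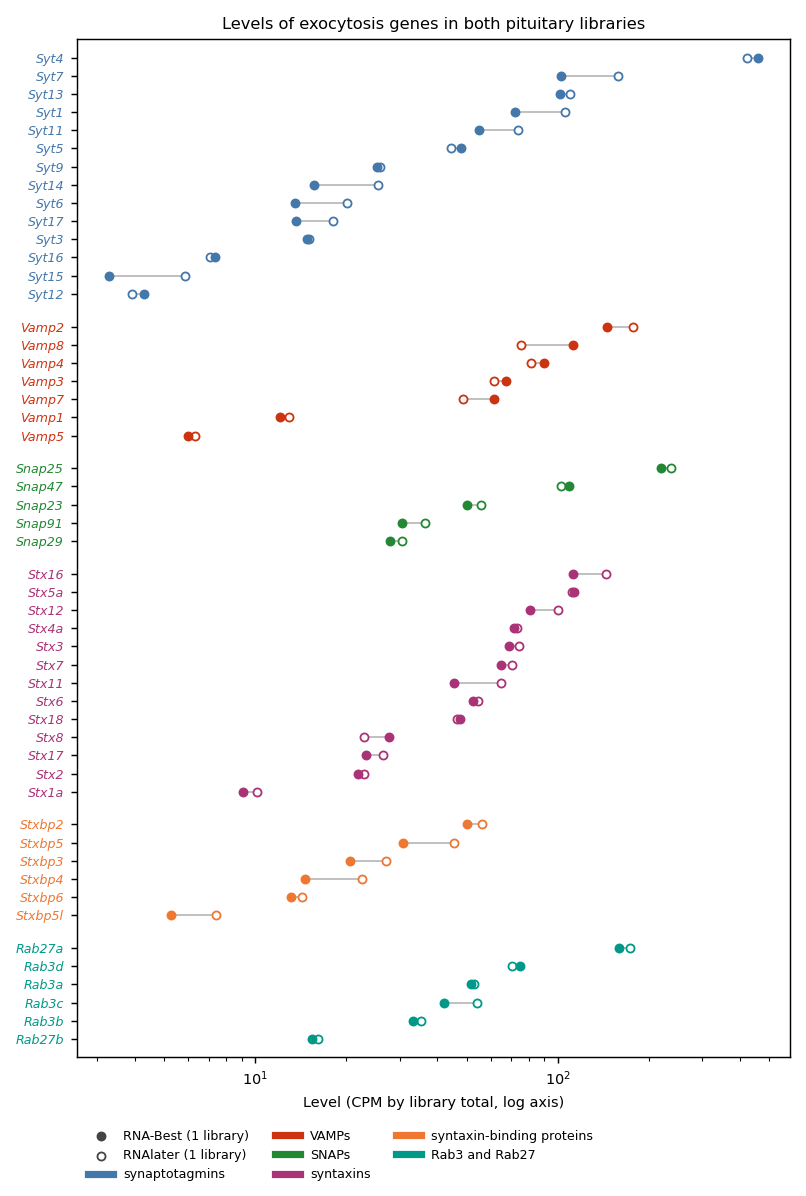
Level of 51 exocytosis genes averaging 1 CPM or more, in CPM by library total on a log axis, with filled circles for the RNA-Best library, open circles for the RNAlater library (1 library each) and colours for the 6 families. Most pairs of circles lie close together, with Syt4 highest at 459 and 421 CPM, and wide gaps are seen for Syt15, Syt14 and Syt7.

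The Rab3 and Rab27 GTPases, which sit on secretory granules and recruit the effectors that dock them, differed little between the libraries. Rab27a (chr9:73044854-73097629, GRCm38) stood at 159 CPM in RNA-Best against 174 CPM in RNAlater, with a log2 ratio of -0.12 (counting interval -0.17 to -0.08). Rab3d, a Rab3 form of endocrine and exocrine granules, stood at 75.2 CPM in RNA-Best against 70.6 CPM in RNAlater, with a log2 ratio of 0.09 (0.02 to 0.16). It was the only Rab gene of the 6 that was higher by CPM. Rab3a, the form best known from synaptic vesicles, stood at 51.8 and 52.9 CPM, and its interval held 0. The lowest ratio was that of Rab3c, with 41.9 CPM in RNA-Best against 54.0 CPM in RNAlater (-0.36, interval -0.45 to -0.28). Rab3b followed at 33.1 and 35.4 CPM and Rab27b at 15.4 and 16.1 CPM, and both intervals held 0. The family median of -0.08 was 0.15 above the protein-coding median, and only Rab3c and Rab3d kept their direction under the 4 scalings.

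Which Rab gene led the family depended on the transcript length assumed. Per kilobase of the longest annotated transcript, Rab27a held 41.9% of the family's summed level in RNA-Best and 43.4% in RNAlater, ahead of Rab3a with 27.7% and 26.9%. With the median length of the annotated transcripts Rab3d led instead, with 40.2% and 36.7%, and Rab27a held 25.9% and 27.4%. The transcripts that were expressed are not known from gene counts. Under either length the 6 genes kept the same order in both libraries.

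The VAMPs, the SNAREs carried by the granule or vesicle, were the family with the highest median ratio, 0.13, which is 0.35 above the protein-coding median. Vamp2 (synaptobrevin 2, chr11:69088490-69092384), the main VAMP of regulated exocytosis, stood at 146 CPM in RNA-Best against 177 CPM in RNAlater, with a log2 ratio of -0.28 (-0.32 to -0.23). Of the 7 VAMPs averaging 1 CPM or more, it was the only one lower under all 4 scalings. Vamp8 (endobrevin, chr6:72385223-72390703), which serves late endosomes and the granules of exocrine and blood cells, stood at 112 CPM in RNA-Best against 75.7 CPM in RNAlater. Its ratio of 0.57 (0.51 to 0.63) was the highest of the machinery.

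The other VAMPs of internal membranes were higher in RNA-Best too. Vamp7, a SNARE of late endosomes and lysosomes, stood at 61.7 CPM in RNA-Best against 48.4 CPM in RNAlater (0.35, interval 0.27 to 0.43). Vamp4, which works at the trans-Golgi network, stood at 90.1 and 81.5 CPM (0.14, interval 0.08 to 0.21). Vamp3 (cellubrevin), found on recycling endosomes, stood at 67.4 and 61.5 CPM (0.13, interval 0.06 to 0.20). All 4 of these genes kept this direction under every scaling. The intervals of Vamp1 (synaptobrevin 1, 12.1 and 12.9 CPM) and of the weakly expressed Vamp5, neighbour of Vamp8 on chromosome 6, held 0.

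The ratio of one VAMP to another within a library does not depend on the scaling. Its size depends on the transcript length used as divisor, and this divisor cancels in its change between libraries. Such a change is not corrected for the fall of log2 ratios with transcript length that is described below. Per kilobase of longest transcript Vamp8 stood at 0.818 of the Vamp2 level in RNA-Best and at 0.454 in RNAlater (0.488 and 0.271 with the median transcript length), a change of 1.80-fold (95% counting interval 1.71 to 1.90). Vamp3 stood at 0.481 of the Vamp2 level in RNA-Best and at 0.362 in RNAlater (0.516 and 0.388 with the median length), a change of 1.33-fold (1.25 to 1.41). Vamp2 was the VAMP with the highest level per kilobase in both libraries, with 30.9% of the family in RNA-Best and 40.2% in RNAlater. These pairs, like those below, were chosen after the values were seen.

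The SNAPs, which anchor the SNARE bundle at the plasma membrane together with syntaxin, differed little. Snap25 (chr2:136713453-136782428), the form of neurons and endocrine cells, stood at 219 CPM in RNA-Best against 236 CPM in RNAlater, with a log2 ratio of -0.11 (-0.15 to -0.07). Snap23, its widely expressed relative, stood at 50.3 and 55.9 CPM (-0.15, interval -0.23 to -0.08). Both were higher in RNA-Best under TMM scaling, and the ratio of Snap25 to Snap23 per kilobase of longest transcript, 2.44 in RNA-Best and 2.36 in RNAlater (1.63 and 1.58 with the median length), changed by 1.03-fold with an interval of 0.971 to 1.10 that holds no change. Snap29, used in autophagosome fusion, stood at 27.8 and 30.5 CPM (-0.13). Snap47 stood at 109 CPM in RNA-Best against 102 CPM in RNAlater (0.09, interval 0.03 to 0.14) and was the only SNAP higher under all 4 scalings. Per kilobase of longest transcript Snap47 led the SNAREs of this family, with 44.5% in RNA-Best and 40.9% in RNAlater, and Snap25 held 34.9% and 36.8%. Of the exon bases of Snap47, 11.6% also belong to Jmjd4 on the opposite strand, and the strand setting of the counting was not given in the sources used here. Snap91 (30.6 and 36.4 CPM, -0.25) matches the name rule only, since it encodes the clathrin assembly protein AP180 and is not a SNARE; it was left out of these shares.

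Among syntaxins, the plasma membrane forms that pair with SNAPs at the fusion site lay near equal CPM. Stx4a stood at 71.4 CPM in RNA-Best against 73.3 CPM in RNAlater, and its interval held 0. Stx3 stood at 69.0 and 74.5 CPM (-0.11, interval -0.18 to -0.04), and Stx2 at 21.8 and 22.8 CPM with an interval that held 0. Stx1a, the syntaxin of synaptic and many neuroendocrine vesicles, stood at 9.07 and 10.1 CPM. Per kilobase of longest transcript Stx4a exceeded Stx1a 11.7-fold in RNA-Best and 10.8-fold in RNAlater, and with the median length 14.5-fold and 13.4-fold. Stx3 exceeded Stx1a 5.37-fold and 5.19-fold by the longest transcript and 11.2-fold and 10.8-fold by the median length. The interval of the change between libraries held 1 for both (0.949 to 1.25 for Stx4a and 0.903 to 1.19 for Stx3).

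The syntaxins of internal membranes went both ways. The trans-Golgi syntaxin Stx16 stood at 112 CPM in RNA-Best against 144 CPM in RNAlater (-0.36, interval -0.41 to -0.31). The endosomal syntaxin Stx12 stood at 80.7 and 100.5 CPM (-0.32, interval -0.38 to -0.26). Stx8, another endosomal syntaxin, stood at 27.7 and 22.9 CPM, and its ratio of 0.27 (0.16 to 0.39) was the highest among the syntaxins averaging 1 CPM or more. These 3 kept their direction under all 4 scalings. The Golgi syntaxin Stx5a stood at 113 and 112 CPM and the endoplasmic reticulum syntaxin Stx18 at 47.4 and 46.3 CPM. Stx6 of the trans-Golgi network stood at 52.5 and 54.6 CPM. By library total all of these intervals held 0, but Stx5a and Stx18 were higher under all 4 scalings. Of the exon bases of Stx18, 12.5% also belong to Nsg1 on the opposite strand, so its counts are less certain. The endosomal syntaxin Stx7 stood at 64.9 and 70.5 CPM (-0.12), and the autophagosome syntaxin Stx17 at 23.2 and 26.4 CPM (-0.18). Stx17 was lower under all 4 scalings, though by only -0.003 under DESeq2 size factors. Stx11, a lipid-anchored syntaxin known from cytotoxic lymphocytes, had the lowest ratio of the family, with 45.3 CPM in RNA-Best against 64.7 CPM in RNAlater (-0.51, interval -0.59 to -0.44). The median of the 5 plasma membrane syntaxins was -0.11 and that of the 8 internal ones -0.09, and that of all 14 syntaxins tested was 0.11 above the protein-coding median.

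**Figure D2:**
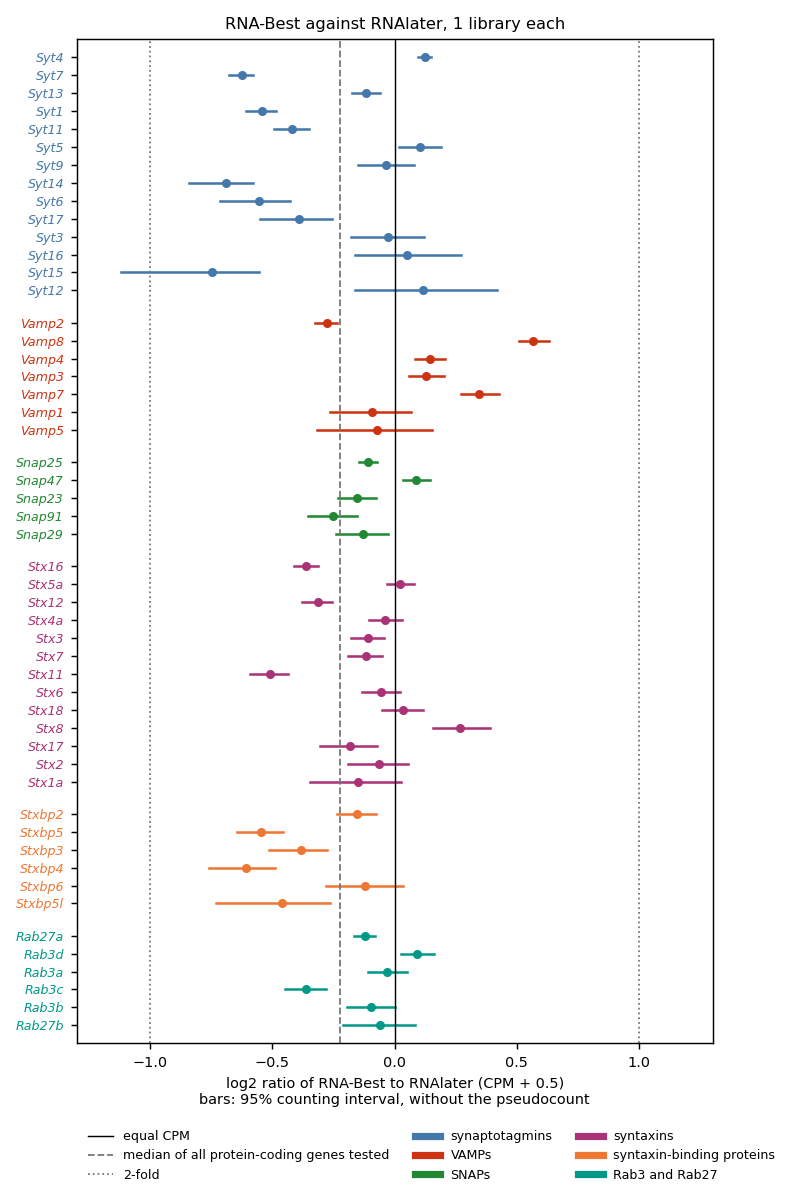
Log2 ratio of RNA-Best over RNAlater (with 0.5 CPM added) for 51 exocytosis genes averaging 1 CPM or more, 1 library each, with bars for the 95% counting interval and lines for equal CPM (solid), the protein-coding median of -0.22 (dashed) and 2-fold (dotted). By CPM, the syntaxin-binding proteins plotted lie left of equal, though Stxbp2 and Stxbp6 move right of it under TMM scaling, and 4 of 7 VAMPs lie right of equal under every scaling.

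The syntaxin-binding proteins had the lowest median ratio of the 6 families, -0.46, which is 0.24 below the protein-coding median. All 7 were lower by CPM, beside 72.3% of protein-coding genes, and 5 under all 4 scalings, beside 55.0%. Relative to their length class the family median was -0.07. Stxbp2, the Munc18 protein of epithelial and blood cells, stood at 50.2 and 56.0 CPM (-0.16, interval -0.24 to -0.08). Stxbp3, the widely expressed Munc18 protein, stood at 20.6 and 27.1 CPM (-0.38, interval -0.51 to -0.28).

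The syntaxin-binding proteins that follow are not of the Munc18 type. Stxbp5 (tomosyn), which holds syntaxin and SNAP in an unproductive bundle, stood at 30.9 CPM in RNA-Best against 45.3 CPM in RNAlater (-0.54, interval -0.65 to -0.46). Stxbp4 (Synip), known for glucose transporter traffic, stood at 14.6 and 22.5 CPM (-0.61, interval -0.76 to -0.49). Stxbp6 (amisyn) had the highest ratio of the family at 13.1 and 14.3 CPM (-0.12), and its interval held 0. Their long transcripts matter for the comparison with other genes: relative to the median of protein-coding genes in the same class of transcript length, Stxbp5 was 0.11 higher and Stxbp4 0.21 lower.

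The synaptotagmins held the most abundant member. Syt4, which binds calcium weakly or not at all and sits on immature and mature secretory granules, stood at 459 CPM in RNA-Best against 421 CPM in RNAlater (0.12, interval 0.10 to 0.15). Per kilobase of longest transcript it held 49.5% of the family in RNA-Best and 42.8% in RNAlater, and with the median transcript length 29.3% and 24.2%. Syt13, another form without calcium binding, stood at 101 and 110 CPM (-0.12) and changed sign with the scaling.

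The 2 main calcium sensors of hormone release were lower in RNA-Best under all 4 scalings. Syt1, the fast sensor, stood at 72.4 CPM in RNA-Best against 106 CPM in RNAlater (-0.54, interval -0.61 to -0.49). Syt7 (chr19:10389090-10453180), the slow sensor with high calcium affinity, stood at 103 and 159 CPM (-0.63, interval -0.68 to -0.58). Other calcium-binding forms went both ways. Syt5 stood at 47.7 and 44.4 CPM (0.10, interval 0.02 to 0.19), Syt9 at 25.2 and 25.9 CPM and Syt3 at 14.8 and 15.1 CPM, the last pair with intervals that held 0. Syt6 stood at 13.5 and 20.1 CPM (-0.56, interval -0.71 to -0.43). The calcium-binding group thus ranged from Syt7 to Syt5, with a median of -0.29 over 6 genes tested, and the 8 other synaptotagmins tested had a median of -0.25.

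Within a library, per kilobase of longest transcript, Syt4 exceeded Syt1 7.85-fold in RNA-Best and 4.93-fold in RNAlater (5.36-fold and 3.37-fold with the median length), a change of 1.59-fold (1.52 to 1.67). Syt4 exceeded Syt7 7.60-fold in RNA-Best and 4.52-fold in RNAlater, but with the median length only 1.84-fold and 1.09-fold, a change of 1.68-fold (1.62 to 1.75). The ratio of Syt5 to Syt1 per kilobase, both calcium sensors, was 1.82 in RNA-Best and 1.16 in RNAlater (4.88 and 3.11 with the median length). It changed by 1.57-fold (1.46 to 1.69). The median log2 ratio of protein-coding genes in the length class was 0.09 for Syt5 and -0.40 for Syt1. It was -0.23 for Syt4 and -0.65 for Syt7. The part of transcript length in these changes was not tested. Summed per kilobase of longest transcript, the calcium-binding forms held 30.7% of the synaptotagmin level in RNA-Best and 34.9% in RNAlater; with the median transcript length these shares were 55.3% and 59.0%.

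The remaining synaptotagmins do not act as classical calcium sensors. Syt11, which restrains endocytosis in neurons, stood at 55.0 CPM in RNA-Best against 73.6 CPM in RNAlater (-0.42, interval -0.49 to -0.35). Syt17 stood at 13.7 and 18.1 CPM (-0.39), and Syt14 at 15.6 and 25.5 CPM (-0.69, interval -0.84 to -0.58). Syt15 had the lowest ratio of the 53 genes, at 3.28 CPM in RNA-Best (177 counts) and 5.86 CPM in RNAlater (263 counts), a log2 ratio of -0.75 with the 0.5 CPM added and an interval of -1.12 to -0.55. These 4 genes were lower under all 4 scalings. Syt12 and Syt16 stood between 3.92 and 7.33 CPM, with intervals that held 0. The family median of -0.25 was 0.03 below the protein-coding median.

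Transcript length moved with the ratio among these genes, as it did among all genes. The Spearman correlation of the log2 ratio with the length of the longest annotated transcript was -0.456 across the 53 genes and -0.620 across the 13815 protein-coding genes; the genes share both libraries and are not independent. With the median transcript length these values were -0.345 and -0.362. The median of protein-coding genes went from 0.09 for transcripts of 1 to 2 kb to -0.65 for those of 6 to 10 kb. The machinery went from 0.03 over 4 genes to -0.45 over 6 genes between the same classes. Below their class median lay 3 of the 4 genes of 1 to 2 kb, 7 of the 14 of 2 to 3 kb, 3 of the 15 of 3 to 4 kb, 7 of the 14 of 4 to 6 kb and 1 of the 6 of 6 to 10 kb. RNA integrity was not analysed here, and the part of transcript length in any single ratio was not tested.

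**Figure D3:**
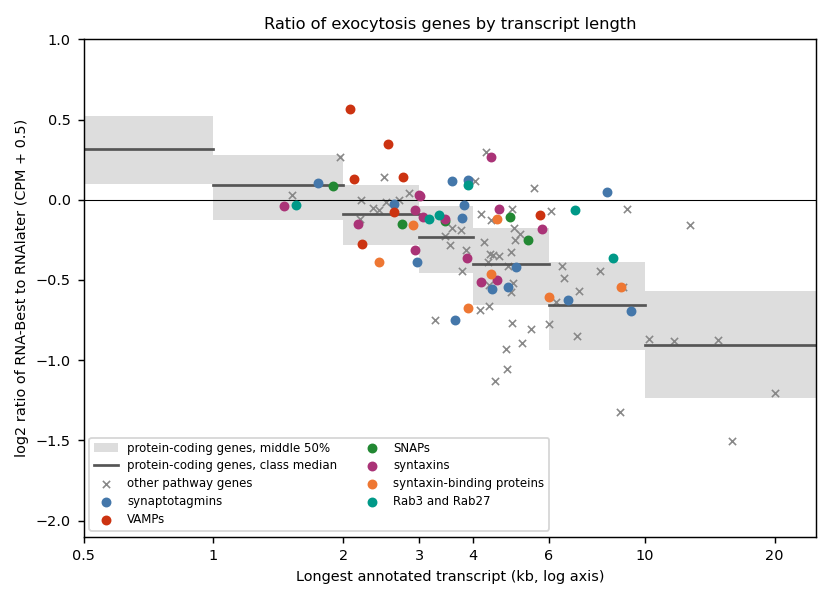
Log2 ratio of RNA-Best over RNAlater (with 0.5 CPM added) against the length of the longest annotated transcript in kb on a log axis, for the 53 exocytosis genes (coloured by family), the 61 other pathway genes (crosses) and protein-coding genes by length class (line for the median, band for the middle 50% of genes). Ratios go down with length in all 3, Vamp8 lies 0.65, Stx8 0.67 and Syt16 0.70 above the median of its class, and Syt15 lies 0.52 below.

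Relative to protein-coding genes of the same length class, the median of the machinery was 0.10, with 32 genes above and 21 below their class median. The class-relative median was 0.23 for the VAMPs, 0.21 for the Rab genes, 0.10 for the SNAPs, 0.07 for the syntaxins, 0.02 for the synaptotagmins and -0.07 for the syntaxin-binding proteins. The order of the families by this measure was close to that by the plain ratio, but the span between VAMPs and syntaxin-binding proteins shrank. Syt7, whose longest transcript is 6624 bases, was 0.03 above the median of its class, Syt14 was 0.04 below, and Syt1 was 0.14 below. Rab27b, with a transcript of 6891 bases, was 0.59 above. Vamp2, with a transcript of 2205 bases, was 0.19 below its class median, although its plain ratio was nearer to 0 than that of Syt7.

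Partner genes of the pathway outside these families were read from 6 lists with 68 genes, of which 61 had a mean of at least 1 CPM. By CPM, 54 of the 61 were lower in RNA-Best and 7 higher, 5 were at least 2-fold lower and none 2-fold higher, and the median was -0.34, beside 72.3% lower and 5.79% at least 2-fold lower among all protein-coding genes. Relative to their length class the median was 0.04. Their longest transcripts reached 20084 bases (Pclo), against 9274 bases for Syt14, the longest of the core machinery.

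The 13 active zone scaffolds, large proteins that hold vesicles near calcium channels, had the lowest list median, -0.64, and all 13 were lower by CPM. They held 4 of the 5 genes past 2-fold. Their median transcript length was 6.45 kb, and among protein-coding genes 21.0% of those with transcripts of 6 to 10 kb and 43.1% of those over 10 kb were at least 2-fold lower. Relative to their length class the scaffolds had a median of -0.12, with 7 of 13 below the class median. Among these 7 were all 4 genes past 2-fold: Erc1 (-0.67 relative to its class), Rims2 (-0.66), Bsn (-0.60) and Pclo (-0.30). The class of Rims2 was 4 to 6 kb, where 5.80% of protein-coding genes were at least 2-fold lower. Bsn (bassoon) stood at 8.16 CPM in RNA-Best against 24.1 CPM in RNAlater (-1.50), Erc1 at 9.90 and 25.5 CPM (-1.32) and Pclo (piccolo) at 39.3 and 91.4 CPM (-1.21). Rims2, a Rab3 effector, stood at 10.2 and 21.7 CPM (-1.06), but its ratio was -0.89 under TMM scaling, -0.88 under DESeq2 size factors and -0.94 by the total without prolactin and growth hormone. The liprin Ppfia1, second in abundance after Pclo, stood at 36.0 and 67.4 CPM (-0.89), and Ppfia4 had the highest ratio at 3.99 and 4.21 CPM (-0.07), which turned positive under the other scalings.

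The effectors and regulators of Rab3 and Rab27 had a median of -0.39, with 11 of 12 lower by CPM. Sytl4 (granuphilin), the effector that docks granules through Rab27a, was the most abundant at 123 CPM in RNA-Best against 141 CPM in RNAlater (-0.19, interval -0.24 to -0.14). Madd, the exchange factor that loads Rab3 and Rab27 with GTP, stood at 67.5 and 116 CPM (-0.78, interval -0.84 to -0.72). Mlph (melanophilin), which links Rab27a to myosin Va, had the lowest ratio at 2.09 and 5.17 CPM (-1.13, and -0.73 relative to its length class). Its ratio was -0.98 under TMM scaling, -0.97 under DESeq2 size factors and -1.06 by the total without prolactin and growth hormone. Sytl1 was the only one higher, at 29.7 and 26.8 CPM (0.14).

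The priming and tethering list, with a median of -0.34, was led by Cadps2 and Exoc4. Cadps2, a priming factor of dense-core granules, stood at 96.0 CPM in RNA-Best against 109 CPM in RNAlater (-0.18), and the exocyst subunit Exoc4 stood at 47.3 and 63.3 CPM (-0.42). The Munc13 gene Unc13b had the lowest ratio at 28.0 and 51.9 CPM (-0.88), close to the median of -0.91 for transcripts over 10 kb, and Unc13d the highest at 1.65 and 1.48 CPM (0.12). Among complexins and soluble calcium sensors, with a median of -0.39 over 6 genes, Cplx2, which clamps and supports SNARE fusion, stood at 77.3 and 132 CPM (-0.77, interval -0.83 to -0.72). Rph3al (Noc2), a Rab effector of endocrine granules, stood at 53.1 CPM in both.

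SNARE recycling and vesicle membrane proteins were nearest to equal CPM. The SNARE-disassembling ATPase Nsf stood at 54.6 CPM in RNA-Best against 74.5 CPM in RNAlater (-0.44), and its adaptor Napa at 86.5 and 87.2 CPM (-0.01). The list median was -0.15 over 4 genes. The vesicle membrane proteins had a median of -0.07, with 7 of 12 lower by CPM. Syp (synaptophysin) stood at 195 and 189 CPM (0.05), Sv2a at 66.2 and 86.6 CPM (-0.39), Synpr (synaptoporin) at 33.5 and 27.1 CPM (0.30) and Syn3 at 1.42 and 3.16 CPM (-0.93). Under 1 CPM, and not tested, were Sytl5, Unc13c, Cplx3, Cplx4, Doc2a, Sypl2 and Syngr4.

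**Figure D4:**
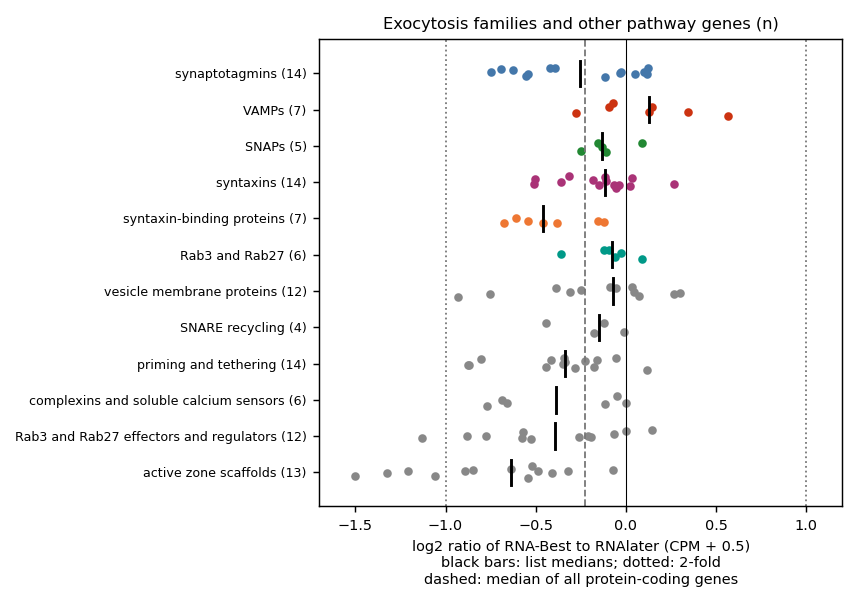
Log2 ratio of RNA-Best over RNAlater (with 0.5 CPM added), 1 point for each gene averaging 1 CPM or more, for the 6 exocytosis families (coloured) and 6 lists of other pathway genes (grey), with the number of genes in brackets, black bars at list medians and lines at 0, at the protein-coding median (dashed) and at 2-fold (dotted). List medians go from 0.13 for the VAMPs to -0.64 for the active zone scaffolds, and the only points past 2-fold are 4 active zone scaffolds and Mlph, of which Mlph and Rims2 come inside 2-fold under TMM scaling.

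Other cell types in the samples also express this machinery, and in bulk samples fewer cells of a type and less RNA per cell cannot be told apart. All 10 endocrine markers were above 1 CPM in both libraries and summed to 314000 CPM in RNA-Best against 246700 CPM in RNAlater. Prolactin and growth hormone made up most of these sums, and 2 of the 10, the granule proteins Chga (-0.30) and Chgb (-0.12), were lower in RNA-Best by CPM. The 10 endothelial markers summed to 430 and 813 CPM. Of these, 9 were lower in RNA-Best and 4 at least 2-fold lower, with a median log2 ratio of -0.87. However, Esam (-0.10), Cldn5 (-0.08) and Egfl7 (0.04) lay near equal CPM. Beside the counts of this and the other lists, 72.3% of all protein-coding genes tested were lower by CPM. At least 2-fold lower were 5.79%, and the median was -0.22. The 10 pericyte and fibroblast markers summed to 590 and 801 CPM, mostly from Col1a2 (376 and 425 CPM, -0.18). All 10 were lower in RNA-Best, with a median of -0.88. The 9 posterior lobe and glial markers summed to 197 and 326 CPM. All 9 were lower in RNA-Best and 2 at least 2-fold lower, with a median of -0.69. Of the 10 neuronal markers, 9 were above 1 CPM in both libraries and 9 lower in RNA-Best, with sums of 72.0 and 99.5 CPM. Their median was -0.62. The 9 stem and folliculostellate markers summed to 885 and 1197 CPM and the 10 macrophage markers to 220 and 212 CPM. Of the stem and folliculostellate markers 8 were lower in RNA-Best, with a median of -0.43. Of the macrophage markers 6 were lower in RNA-Best, with a median log2 ratio of -0.32, while the C1q genes were higher. The 5 erythroid markers were higher in RNA-Best, with 3200 and 1130 CPM. The 8 mast cell and platelet markers summed to 17.6 and 22.8 CPM, and Mcpt4 was at 0 in both. Only 2 of the 8 were above 1 CPM in both libraries, Kit (6.75 and 12.8 CPM) and Itga2b (9.14 and 8.46 CPM). By CPM, Kit and Cpa3 were the only 2 lower in RNA-Best, and the median log2 ratio was 0.07. The part of these cell types in the ratios of the exocytosis genes was not tested.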

How the data were processed

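Poly(A) libraries of 2 pituitary samples were analysed, 1 per stabilizer, grouped by the labelled stabilizer. The authors deposited 1 table of reads per gene as estimated counts that were not normalized. Per the submitters' processing notes STAR 2.5.1b and featureCounts 1.5.0-p1 were used with the mm10 build. Of the values above 0, 35.4% in RNA-Best and 34.9% in RNAlater were not whole, so some reads were divided between features. The option and the strand setting were not given in the sources used here. Of the 58 genes, 21 had fractional counts, and the exons of 15 overlapped those of another gene (7 a protein-coding gene), so the counts of these genes are less certain.

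Symbols, types, coordinates and lengths came from GENCODE M21 on GRCm38, matched by identifier without version (46574 of 47069 rows, 98.9%). Vamp7 was matched to a scaffold outside the assembled chromosomes. Counts were scaled by library total (53915047 and 44917492). Log2 ratios added 0.5 CPM and took genes averaging 1 CPM or more, and a gene counted as apart at 2-fold. Intervals of single ratios were exact conditional binomial intervals on counts rounded to whole numbers. Those of gene pairs were Woolf intervals on counts that were not rounded. The design assumed whole counts. TMM factors came from edgeR 4.0.16 and size factors from DESeq2 1.42.0 in R 4.3.3, and the rest from Python 3.11.15 with numpy 2.4.6, pandas 2.3.3, scipy 1.17.1 and matplotlib 3.10.9. The steps were tested on simulated data. Length classes were split at 1, 2, 3, 4, 6 and 10 kb.

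The genes and lists were chosen with earlier results of these data known. Values are given for genes averaging 10 CPM or more, for those 2-fold apart and for the ends of each family, and of the other pathway genes for those 2-fold apart, the 2 most abundant and the ends of each list. Stx1a, Syt12, Syt16 and Vamp5 fell outside this rule and were named after their values were seen, as were the gene pairs and the groups of synaptotagmins and syntaxins. Alternatives were 3 other scalings, pseudocounts of 0.1 and 1 CPM, filters of 1 read and 10 CPM, genes with whole counts only, a background of all annotated genes and the median transcript length. The named values of 2 genes, which stay in all counts and medians, are not reported here.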

Additional observations from a re-analysis of the deposited data

How the results depend on the processing

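No gene of the machinery was 2-fold apart in either direction under any alternative tried. The count of genes lower in RNA-Best, 40 of 53 by library total, was 20 under TMM scaling, 20 under DESeq2 size factors and 24 by the total without the 2 most abundant genes. It was 25 of 32 when only genes with whole counts were used, because fewer genes were counted. Signs changed for 20, 20 and 16 of the 53 genes under these 3 scalings and for none under the other pseudocounts. The median relative to all protein-coding genes, 0.11, lay between 0.057 and 0.12 under every alternative, and that relative to the same length class, 0.10, stayed positive, with 0.029 for the median transcript length and 0.019 for genes with whole counts only. No paired analysis was possible because each stabilizer had 1 library and the labels carry no replicate numbers. Single genes below 10 CPM are limited by depth: the interval of Syt15, from 177 and 263 counts, reached beyond 2-fold lower, so a 2-fold difference of that gene is within counting error.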
